A study of Mus musculus with 6 samples.

Results

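Genes of glucose uptake, glycolysis and lactate handling were described across replicate cell cultures of mouse dorsal root ganglia (DRG), which hold the cell bodies of sensory neurons with their glia beside the spinal cord. They were picked by symbol: Slc2a3, Hk1, Hk2, Pfkp, Aldoa, Aldoc, Pkm, Ldha, Ldhb and Slc16a1. All 10 were found among the 45703 genes of the deposited count table. The 6 samples formed a single group: primary cultures from wild-type C57BL/6 mice of 4 to 6 weeks of age, grown for 7 days on poly-L-lysine. The medium held 10% fetal calf serum, and the growth factors EGF and FGF had been added, each at 10 ng/ml. RNA of each sample came from 2 dishes, and the labels do not say how many animals went into a dish. There was no untreated, freshly isolated or otherwise different group, so the comparisons were between genes within a culture and between replicate cultures.

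Glycolysis splits glucose into pyruvate in the cytosol. Glucose enters through carriers of the Slc2a family, hexokinases trap it as a phosphate, phosphofructokinase commits it to the pathway, aldolase cleaves the sugar, and pyruvate kinase releases pyruvate. Lactate dehydrogenase interconverts pyruvate and lactate, and monocarboxylate transporters of the Slc16a family carry lactate across the plasma membrane. Several steps have isozymes that differ between tissues, and in peripheral nerve lactate passed from Schwann cells to axons is regarded as a fuel for the axon. Many genes of the pathway are known targets of the hypoxia-inducible factor HIF-1, which binds DNA at the letters ACGTG or GCGTG.

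Ldha, Hk2 and Pkm shared their lowest and their highest culture, whereas Ldhb, the other subunit of lactate dehydrogenase, was nearly level. Their promoter windows are therefore shown, each 300 bases long, from 250 bases before to 50 bases after an annotated start, as given by RefSeq for GRCm38.p6, 5′ to 3′ on the strand of the gene. Capitals mark ACGTG or GCGTG on either strand; the palindrome CACGTG counts once on each strand. The windows are Ldha at chr7:46845554-46845853 (plus strand), Hk2 at chr6:82774405-82774704 (minus strand), Pkm at its inner start at chr9:59656977-59657276 (plus strand) and Ldhb at chr6:142507908-142508207 (minus strand).
Ldha: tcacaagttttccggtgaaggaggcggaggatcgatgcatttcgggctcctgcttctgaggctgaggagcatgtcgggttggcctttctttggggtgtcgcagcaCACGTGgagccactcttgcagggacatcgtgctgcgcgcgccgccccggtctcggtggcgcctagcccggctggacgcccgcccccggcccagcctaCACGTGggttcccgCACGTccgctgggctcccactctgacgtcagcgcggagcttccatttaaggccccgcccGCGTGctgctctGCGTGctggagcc
Hk2: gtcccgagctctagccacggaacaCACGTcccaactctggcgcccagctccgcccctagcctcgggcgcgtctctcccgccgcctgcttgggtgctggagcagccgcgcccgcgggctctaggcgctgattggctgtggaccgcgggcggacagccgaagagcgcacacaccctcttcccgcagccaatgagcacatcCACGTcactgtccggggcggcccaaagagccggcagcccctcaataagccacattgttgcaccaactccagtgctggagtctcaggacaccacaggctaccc
Pkm: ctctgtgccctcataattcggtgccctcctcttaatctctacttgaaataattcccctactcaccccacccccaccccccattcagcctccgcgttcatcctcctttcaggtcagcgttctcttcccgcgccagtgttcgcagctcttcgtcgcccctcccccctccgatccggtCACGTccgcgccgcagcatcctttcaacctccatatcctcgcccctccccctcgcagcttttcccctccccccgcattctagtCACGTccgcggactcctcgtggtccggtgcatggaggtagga
Ldhb: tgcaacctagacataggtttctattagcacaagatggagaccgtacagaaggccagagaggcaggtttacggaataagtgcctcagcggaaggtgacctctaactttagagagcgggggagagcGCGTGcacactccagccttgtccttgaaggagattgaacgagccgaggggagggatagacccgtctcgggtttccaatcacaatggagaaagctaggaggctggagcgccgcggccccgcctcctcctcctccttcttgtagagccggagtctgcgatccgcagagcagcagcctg

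The Ldha window held 7 matches, at positions -145, -144, -48, -47, -34, 26 and 38 from the start site. The Hk2 window and the Pkm window held 2 each, and the Ldhb window held 1. The outer start of Pkm held 0 and the second start of Ldha held 2. Among the other genes, Slc16a1 held 5, Hk1 5 and 0 at its 2 starts, Pfkp 4, Aldoc 3 and 1, and Aldoa at most 1. Whether the number of matches goes with the levels of these genes was not tested. Of all 32851 promoter windows in the table, 43.8% held at least 1 match, 20.6% at least 2, 8.93% at least 3, 3.86% at least 4 and 0.301% at least 7. The table had windows for 9 of the 10 genes, and 12 of their 15 windows held a match. The same match of Aldoa was counted in 2 overlapping windows. A match is a run of letters and was not measured as a binding site.

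The 6 libraries held 20070639 to 22968642 counts. Levels are given as CPM, the count of a gene per 1000000 counts of its library, and between genes as CPM per kb, which divides CPM by the combined exon length of the gene. The labelled tissue was checked against marker genes: the glial lineage list (8 genes, among them Sox10 and Erbb3) summed to 5401 to 7745 CPM and the neuron list (10 genes, among them Tubb3 and Nefl) to 879 to 1746 CPM, whereas erythrocyte, adipocyte and skeletal muscle genes summed to at most 2.19 CPM each. Fibroblast genes summed to 3339 CPM in replicate 1 and 13980 CPM in replicate 5, so marker levels differed between the cultures. In bulk RNA, fewer cells of a type and less RNA per cell cannot be told apart. The libraries differed from each other by more than read sampling, with a median chi-square per gene of 2.00 to 6.87 over the 15 pairs. Nothing in the labels states that the cultures came from separate animals, so p-values refer to these samples and not to animals. The labels give no culture date or sequencing batch.

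Mean levels of the 10 genes ran from Aldoa at 741 ± 27.8 CPM to Aldoc at 2.90 ± 0.901 CPM (SD, n = 6). Per kb of exon, the order was Aldoa (307 ± 11.5 CPM per kb), Pkm (170 ± 35.6), Ldhb (74.5 ± 4.81), Ldha (56.1 ± 16.3), Hk1 (32.3 ± 3.31), Pfkp (10.1 ± 1.65), Slc2a3 (8.46 ± 1.28), Slc16a1 (7.26 ± 0.640), Hk2 (2.44 ± 1.76) and Aldoc (1.01 ± 0.313). In this order 6 of the 9 pairs of neighbours kept their order in all 6 libraries. The other pairs changed order between libraries: Ldhb exceeded Ldha in 5 libraries, Slc2a3 exceeded Slc16a1 in 4 and Hk2 exceeded Aldoc in 4. The combined exon length counts every annotated exon and is 5342 bases for Ldha and 11760 bases for Pfkp. The longest principal transcript of the GENCODE M21 annotation is 1766 bases for Ldha and 4145 bases for Pfkp, and both annotations give 1304 bases for Ldhb. With principal transcript lengths Ldha, at 170 ± 49.2 CPM per kb, stood above Ldhb in all 6 libraries, directly under Pkm, and Slc2a3 stood above Slc16a1 in all 6. The other places in the order did not change.

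**Figure D1:**
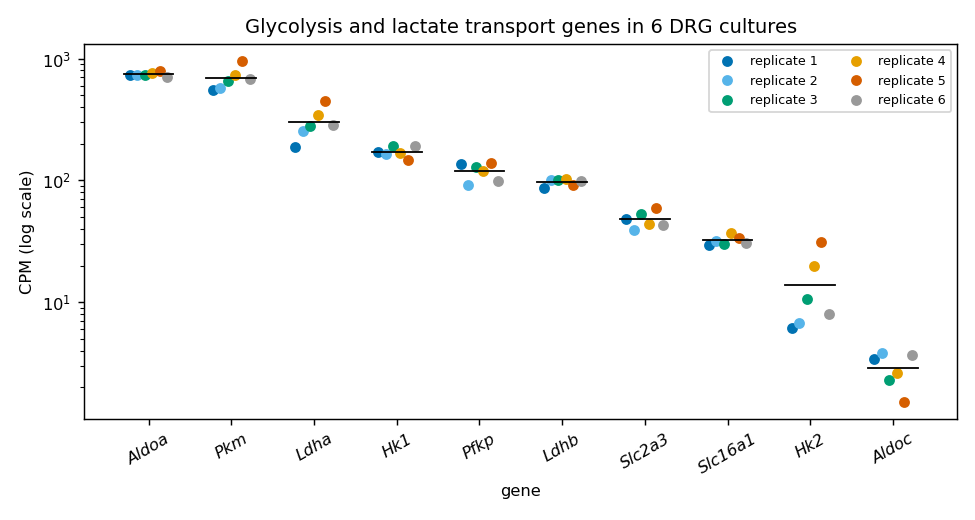
CPM of each gene (log axis) in the 6 cultures, 1 coloured point per replicate, with a bar at the mean. Aldoa and Pkm lie highest and Aldoc lowest, and the points of Hk2 reach 31.3 CPM in replicate 5, against 6.14 CPM in replicate 1.

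Glucose uptake was represented by Slc2a3, which encodes GLUT3, a high-affinity carrier best known from neurons (chromosome 6, 122727809 to 122802363, minus strand, GRCm38.p6, as for all coordinates here). It was counted at 48.2, 39.4, 53.1, 44.2, 59.0 and 42.8 CPM in replicates 1 to 6. Replicate 5 was highest and replicate 2 lowest, 1.5-fold apart. A pseudogene on the same strand, Gm4482, lies within the limits of Slc2a3 and held 11.9% to 17.3% as many counts. Slc2a1, which encodes GLUT1, the carrier of glia, endothelium and many other cells, was counted at 56.1 ± 7.57 CPM (SD, n = 6). Per kb, Slc2a3 stood at 0.357 to 0.475 of Slc2a1 and below it in all 6 libraries. By principal transcript length it stood at 0.62 to 0.823 of Slc2a1.

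Hexokinase traps glucose inside the cell. Hk1 (chromosome 10, 62268855 to 62379920, minus strand), the isozyme of brain and most other tissues, was counted at 172, 164, 193, 168, 146 and 192 CPM. These values lay within 1.32-fold of each other, with replicate 5 lowest. Hk2 (chromosome 6, 82725025 to 82774454, minus strand), the inducible isozyme of muscle, fat and proliferating cells, was counted at 6.14, 6.69, 10.6, 19.9, 31.3 and 8.08 CPM. Replicate 5 stood 5.10-fold above replicate 1, and replicate 4 was the next highest; without replicate 5 the range was 3.24-fold. The ratio of Hk1 to Hk2 per kb was 29.6 in replicate 1, 25.9, 19.2 and 8.96 in replicates 2 to 4, 4.95 in replicate 5 and 25.1 in replicate 6. Hk1 thus exceeded Hk2 in every culture, by a ratio that differed 5.99-fold between replicates 1 and 5.

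Phosphofructokinase catalyses the committed step. Pfkp (chromosome 13, 6579874 to 6649060, minus strand), the platelet isozyme, was counted at 137, 92.4, 128, 120, 139 and 99.6 CPM. Replicates 2 and 6 were the lowest. Pitrm1, on the opposite strand, overlaps Pfkp and held 67.8% to 109% as many counts, and the strand setting of the counting is not given in the sources used here, so the level of Pfkp is less certain. The liver isozyme gene Pfkl was counted at 24.2, 29.2, 34.6, 42.6, 69.2 and 37.3 CPM, lowest in replicate 1 and highest in replicate 5, while the muscle isozyme gene Pfkm stood at 41.0 ± 3.05 CPM (SD, n = 6). The ratio of Pfkp to Pfkl per kb was 1.96 in replicate 1 and 0.696 in replicate 5. With principal transcript lengths it was 5.09 and 1.81, so that Pfkp then stood above Pfkl in both.

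Aldolase cleaves the phosphorylated sugar. Aldoa (chromosome 7, 126795234 to 126800994, minus strand), the ubiquitous isozyme, was counted at 739, 737, 729, 757, 784 and 702 CPM and was the steadiest of the 10 genes, with a coefficient of variation of 3.75%. Aldoc (chromosome 11, 78323073 to 78327781, plus strand), the brain isozyme and a common marker of astrocytes, was counted at 3.44, 3.83, 2.31, 2.64, 1.53 and 3.68 CPM, from 32 to 84 counts. Replicate 5 was lowest, and without it the range was 1.66-fold in place of 2.5-fold. Per kb, Aldoa exceeded Aldoc 226-fold to 610-fold.

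Pyruvate kinase and lactate dehydrogenase end the pathway. Pkm (chromosome 9, 59656576 to 59679372, plus strand), whose spliced forms M1 and M2 are pooled in a count per gene, was counted at 555, 574, 658, 738, 956 and 686 CPM. Ldha (chromosome 7, 46842274 to 46855627, plus strand), the subunit often described as favouring lactate formation, was counted at 190, 255, 281, 344, 445 and 285 CPM. Both genes were lowest in replicate 1, next lowest in replicate 2 and highest in replicate 5, with replicate 4 next highest. The highest value exceeded the lowest 2.35-fold for Ldha and 1.72-fold for Pkm. Without replicate 5 these ranges were 1.81-fold and 1.33-fold.

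Ldhb (chromosome 6, 142490249 to 142507957, minus strand), the subunit that predominates in heart and is often tied to lactate use, was counted at 87.3, 102, 101, 103, 91.4 and 99.0 CPM. Its values lay within 1.18-fold of each other, and replicates 1 and 5, at opposite ends for Ldha, were both on the low side. The Ldha to Ldhb ratio per kb was 0.530 in replicate 1 and 1.19 in replicate 5, with the other cultures between. With principal transcript lengths the same ratio ran from 1.6 to 3.59. The 2.24-fold difference of the ratio between these cultures does not depend on the length chosen.

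Lactate transport was represented by Slc16a1 (chromosome 3, 104638664 to 104658462, plus strand), which encodes MCT1, a carrier found in Schwann cells among other types. It was counted at 29.3, 31.9, 30.2, 36.9, 33.9 and 30.6 CPM, a range of 1.26-fold with replicate 4 highest. Slc16a3, which encodes MCT4, a carrier known for lactate export from glycolytic cells, was counted at 1.57, 3.14, 6.74, 9.32, 27.9 and 5.59 CPM. It was thus lowest in replicate 1 and highest in replicate 5, 17.8-fold apart; without replicate 5 the range was 5.94-fold. Per kb, Slc16a1 exceeded Slc16a3 in 5 of 6 libraries, from 14.9-fold in replicate 1 down to a ratio of 0.966 in replicate 5. By principal transcript length the ratio in replicate 5 was 1.19, and Slc16a1 was higher in all 6. Slc16a7, which encodes MCT2, a high-affinity carrier of neurons, lay below Slc16a1 per kb in all 6 libraries, by 6.00-fold to 11.5-fold.

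In all, 8 such pairs of isozymes or carriers were compared within libraries by log2(CPM per kb + 0.1). The sign of the difference in each library was flipped in all 64 ways, a two-sided exact permutation test whose smallest possible p is 0.031. In 4 pairs the difference had the same sign in all 6 libraries and reached that p, with a Benjamini-Hochberg adjusted p of 0.0625 over the 8 pairs, so none passed 0.05. Their differences were 3.92 ± 0.994 for Hk1 minus Hk2, 8.16 ± 0.496 for Aldoa minus Aldoc, -1.30 ± 0.172 for Slc2a3 minus Slc2a1 and 2.91 ± 0.355 for Slc16a1 minus Slc16a7 (log2, SD, n = 6). Slc16a1 minus Slc16a3, at 1.98 ± 1.25, and Ldha minus Ldhb, at -0.45 ± 0.402, had an adjusted p of 0.0833 by the same exact permutation test. Pfkp differed from Pfkl by 0.13 ± 0.499 and from Pfkm by -0.18 ± 0.251, which was within the replicate spread (exact permutation, adjusted p = 0.656 and 0.214). With principal transcript lengths all 8 differences had 1 sign in all libraries (exact permutation, adjusted p = 0.031), and Ldha minus Ldhb and Pfkp minus Pfkm turned positive, at 1.14 and 1.00. The adjusted p of a pair with 1 sign in all libraries depends on how many pairs share this, not on the size of its difference. The test shows that a measured ratio recurs between cultures, and any bias of length or mappability recurs with it.

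**Figure D2:**
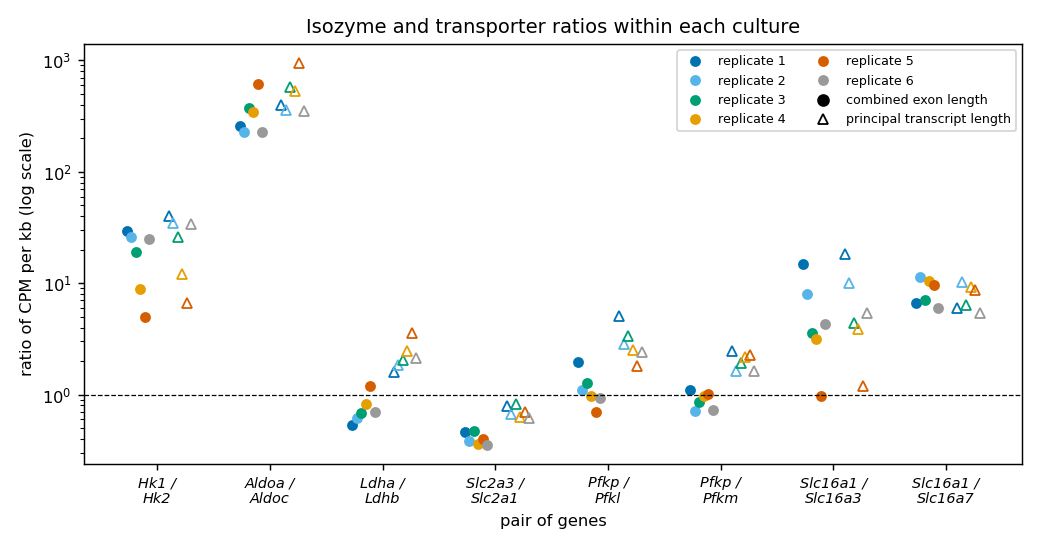
Ratio of CPM per kb between the genes of each pair (log axis) in each culture, with circles for combined exon length and triangles for principal transcript length. Hk1 exceeds Hk2 and Aldoa exceeds Aldoc on both scales, whereas Ldha lies under Ldhb in 5 of 6 cultures with combined exon length and above it in all 6 with principal transcript length.

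All 10 genes varied between the cultures by more than read sampling (edgeR's Poisson deviance, Benjamini-Hochberg adjusted p under 0.05 over 14998 genes). This share is to be read against 76.3% of all genes tested, and high counts make even small spread detectable: Aldoa, with at least 14673 counts in every library, had an adjusted p of 2.8e-20 in this edgeR fit at a range of 1.12-fold. The weakest call was that of Slc16a1 (edgeR, adjusted p = 3.3e-04), which was lost when replicate 4 was left out. The genes differed in the size of this spread. The biological coefficient of variation (BCV) is edgeR's estimate of relative spread between replicates beyond counting noise. The estimate of each gene is drawn towards the trend for genes of its abundance. It was 0.544 for Hk2 against a trend of 0.234, and 97.5% of all genes tested had a lower BCV. Ldha had 0.246 against a trend of 0.164, Pkm 0.186 against 0.176 and Aldoc 0.310 against 0.292. Aldoa, Ldhb, Slc16a1, Hk1 and Slc2a3 lay under their trend, with BCVs from 0.10 for Ldhb to 0.146 for Slc2a3. The median BCV was 0.150 over the 10 genes and 0.153 over all genes tested.

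**Figure D3:**
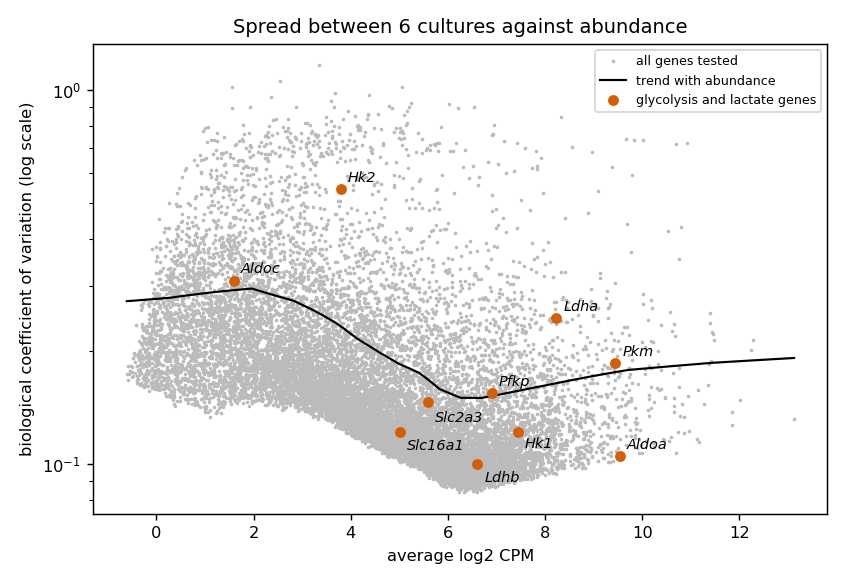
BCV between the 6 cultures (log axis) against average log2 CPM, with grey points for all 14998 genes tested, the 10 genes in orange and a line at the trend. Hk2 and Ldha lie above the line, and Aldoa, Ldhb, Slc16a1, Hk1 and Slc2a3 lie under it.

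Replicates 1 and 5 were then set side by side, a choice of cultures made after the values were seen. Of the 10 genes 3, Hk2, Ldha and Pkm, were lowest in replicate 1 and highest in replicate 5, against 12.9% of all genes tested. Without replicate 5, 5 were lowest in replicate 1 and highest in replicate 4, against 11.1% of all genes tested: these 3 with Ldhb and Slc16a1. In all, 6 were highest in replicate 5 against a background of 29.2%: Slc2a3, Pfkp, Aldoa, Hk2, Ldha and Pkm. Hk1 and Aldoc were lowest there, where 26.2% of all genes tested had their lowest value. Single libraries are compared here, with no test. Together the 10 genes took 1967 CPM in replicate 1 and 2687 CPM in replicate 5. Without Pkm and Ldha the other 8 took 1222 and 1287 CPM.

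Markers of several cell types moved along the same cultures. The summed fibroblast list (8 genes) stood at 3339, 6064, 4432, 7453, 13980 and 4801 CPM in replicates 1 to 6. The mural list (6 genes) ranged from 304 to 1990 CPM and the macrophage list (7 genes) from 14.1 to 126 CPM. The endothelial list (6 genes) ranged from 8.14 to 116 CPM. Each of these lists was lowest in replicate 1 and highest in replicate 5. The cell cycle list (7 genes) was also lowest in replicate 1, at 290 CPM. It was highest in replicate 6, at 510 CPM, with 439 CPM in replicate 5. Lowest in replicate 5 were the neuron list at 879 CPM and the glial lineage list at 5401 CPM. The satellite glia list (6 genes), at 1664 CPM, and the myelin list (6 genes), at 1775 CPM, were lowest there too. These are sums, and single genes differed. Of the satellite glia genes 3 were lowest and 2 highest in replicate 5, and of the myelin genes 4 were lowest and 1 highest. In the neuron list and in the glial lineage list 6 genes were lowest there and 0 highest. From lowest to highest, the order of the cultures was 1, 2, 6, 3, 4 and 5 for both Hk2 and the macrophage list. For Ldha, Pkm and the endothelial list it was 1, 2, 3, 6, 4 and 5. It was 1, 2, 3, 4, 6 and 5 for the mural list and 1, 3, 6, 2, 4 and 5 for the fibroblast list. These orders were compared after the values were seen, with no test. The part of these cell types in the levels of Hk2, Ldha, Pkm and Aldoc was not tested.

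**Figure D4:**
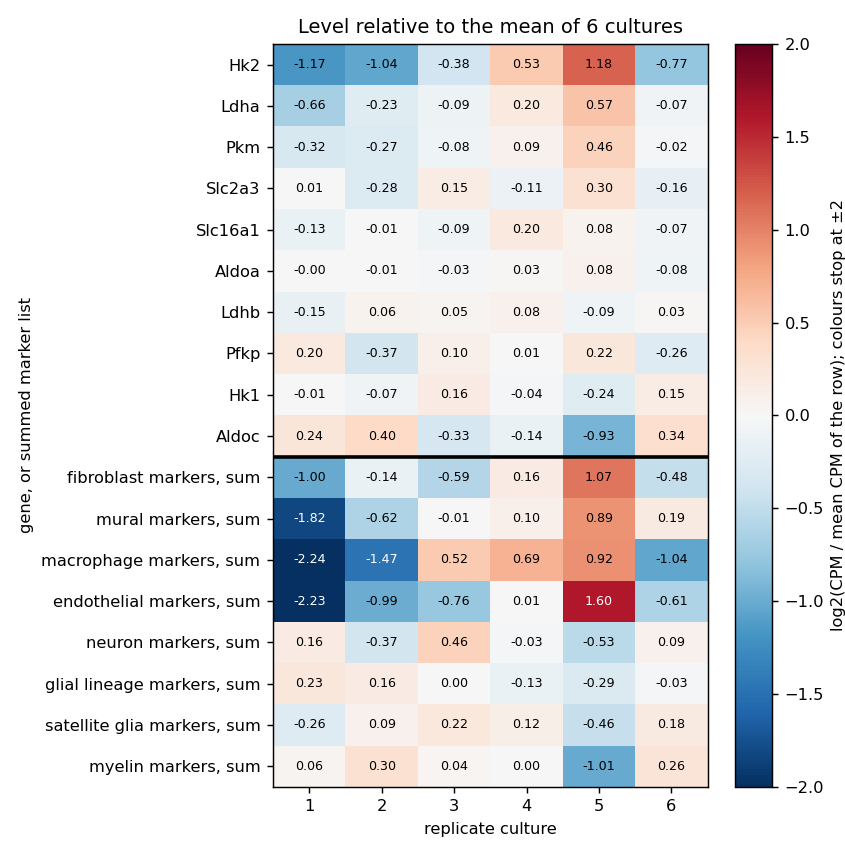
Level of each of the 10 genes, and of 8 summed marker lists, in each culture relative to its own mean over the 6 cultures, as log2 values printed in the cells. Hk2, Ldha and Pkm share their extremes in replicates 1 and 5 with the fibroblast, mural, macrophage and endothelial lists. Aldoc and Hk1 are lowest in replicate 5, as are the neuron, glial lineage, satellite glia and myelin lists. Their highest cultures differ. These are replicate 2 for Aldoc and the myelin list, replicate 3 for Hk1, the neuron list and the satellite glia list, and replicate 1 for the glial lineage list.

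Other enzymes of the pathway were described from a list of 20 genes. Of these, 11 were tested, all 11 varied beyond read sampling (76.3% of all genes tested), and 7 were highest in replicate 5 (background 29.2%). In replicate 5 relative to replicate 1, 3 were at least 1.5-fold higher against 13.9% of all genes tested: Pfkl at 2.86-fold, Eno1, the ubiquitous enolase, at 2.29-fold and Gapdh, which oxidises glyceraldehyde phosphate, at 1.56-fold. Eno2, the neuronal enolase, went the other way, at 166, 144, 162, 123, 97.5 and 145 CPM, and was the 1 gene more than 1.5-fold lower (background 8.61%). Per kb the highest of the list were Tpi1 (155 ± 11.0 CPM per kb), Gapdh (151 ± 25.3) and Eno1 (108 ± 34.3), all with fractional counts in at least 5 libraries. Gapdhs, Pgk2 and Ldhc, isozymes of testis, and Pgam2, of muscle, had 0 counts in every library, and Pklr, the pyruvate kinase of liver and red cells, had at most 1. Hk3, a hexokinase of myeloid cells, was left out of the test because it was low in replicate 1, at 0.392 CPM. It stood at 0.638 CPM in replicate 2 and reached 9.08 CPM in replicate 5.

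Among 10 glucose transporters, Slc2a3 included, 7 were tested, 5 varied beyond read sampling (76.3% of all genes tested) and 1 was at least 1.5-fold higher in replicate 5 than in replicate 1 (13.9% of all genes tested), so neither count stood apart from the background. The latter was Slc2a10, at 9.17 against 3.57 CPM. Slc2a1, Slc2a3 and Slc2a8 were the highest per kb, and Slc2a2, the carrier of liver and pancreatic beta cells, had at most 1 count in any library. Of 9 genes of monocarboxylate transport, Slc16a1 included, 8 were tested and 7 varied beyond read sampling (76.3% of all genes tested). At least 1.5-fold higher in replicate 5 were 2 of the 8 (13.9% of all genes tested), Slc16a3 and Emb. Emb encodes embigin, an ancillary chain of monocarboxylate transporters, and was counted at 31.3 CPM in replicate 1 and 122 CPM in replicate 5. Bsg, which encodes basigin, the partner of MCT1 and MCT4, was the highest of the list at 252 ± 24.9 CPM per kb (SD, n = 6), and its values in replicates 1 and 5 were 397 and 394 CPM. Next per kb came Nptn, an ancillary chain related to basigin, at 106 ± 4.19, and Mpc2, a subunit of the mitochondrial pyruvate carrier, at 32.9 ± 1.16.

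Regulators of glycolysis and of pyruvate entry into mitochondria were 17 genes, all tested, of which 12 varied beyond read sampling (76.3% of all genes tested) and 3 were at least 1.5-fold higher in replicate 5 than in replicate 1 (13.9% of all genes tested), both near the background. The 3 were Pdk1 and Pdk3, kinases that switch off pyruvate dehydrogenase, at 5.22-fold and 2.14-fold, and Hif1a, the oxygen-regulated subunit of HIF-1, at 2.04-fold. Hif1a was counted at 116, 117, 135, 164, 235 and 129 CPM. The genes of the pyruvate dehydrogenase complex itself, Pdha1, Pdhb and Dlat, were among the 5 that did not pass the test, and Pdha1 stood at 209 ± 4.18 CPM (SD, n = 6). Per kb, Pdha1, Pdhb and G6pdx, the entry enzyme of the pentose phosphate pathway, were the highest of this list.

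Hypoxia targets outside glycolysis were 15 genes, of which 13 were tested and all 13 varied beyond read sampling (76.3% of all genes tested). In replicate 5 relative to replicate 1, 6 were at least 1.5-fold higher (13.9% of all genes tested): Adm, the peptide adrenomedullin, at 15.4-fold, Egln3, an oxygen sensor, at 9.33-fold, P4ha1 and P4ha2, enzymes of collagen hydroxylation, at 2.34-fold and 2.07-fold, Vegfa, the vessel growth factor, at 2.31-fold and Bnip3, a mitophagy receptor, at 1.61-fold. The list did not move as 1 group: Ndrg1, its highest gene per kb, was lowest in replicate 5, at 349 CPM against 490 to 572 CPM in the others, and Bnip3l and Kdm3a were higher in replicate 1 than in any other culture. Car9 had at most 5 counts in any library. The median log2 ratio of replicate 5 to replicate 1 was 0.32 over the 13 genes, 0.26 over the 11 other enzymes, 0.15 over the 10 genes and 0.01 over all genes tested.

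**Figure D5:**
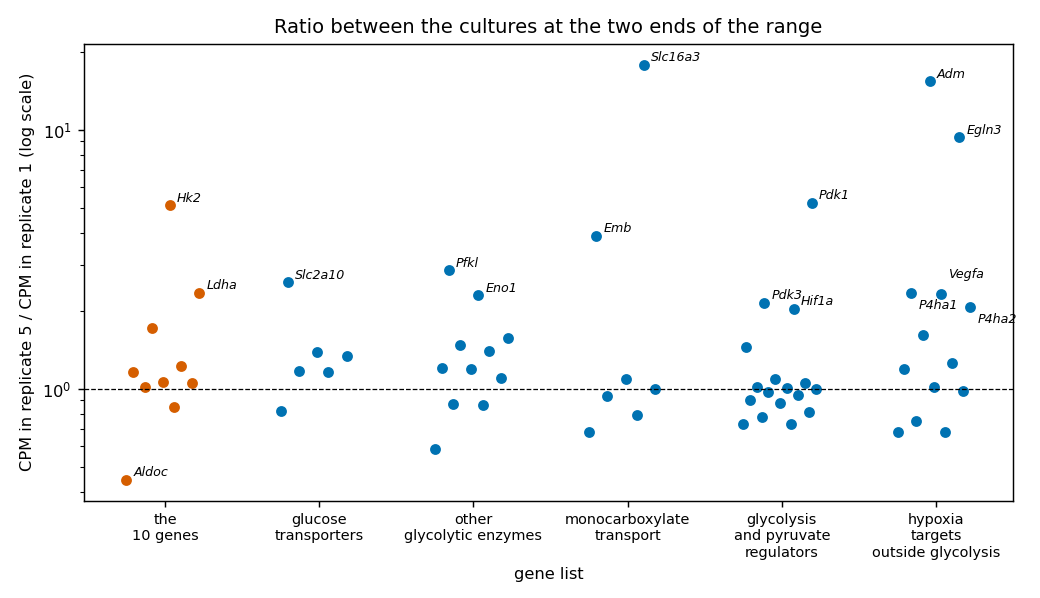
Ratio of CPM in replicate 5 to CPM in replicate 1 (log axis) for the 10 genes in orange and the other tested genes of 5 lists in blue, 1 point per gene, with the dashed line at no difference. Slc16a3, Adm, Egln3, Pdk1 and Hk2 stand highest, and Aldoc is the lowest point.

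For the 3 genes with the widest spread of log2 CPM, the genes of most similar profile were sought among those with a mean of at least 5 CPM, as the smallest SD of the log2 ratio over the 6 libraries. For Hk2 these were C1s1, a complement protease, Cyba, a subunit of the phagocyte oxidase, and Thbs2, a matrix thrombospondin, with SDs of 0.17, 0.17 and 0.18. For Ldha they were Arhgap29, a GTPase-activating protein, Arntl, a clock transcription factor, and Golm1, a Golgi protein, with SDs of 0.03, 0.05 and 0.05. For Aldoc they were Matn2, a matrix protein, Otud1, a deubiquitinase, and Gfra2, the neurturin receptor, with SDs of 0.10, 0.11 and 0.11. Thbs2 stood at 240 CPM in replicate 1 and at 1330 CPM in replicate 5, and Matn2 stood at 1338 CPM in replicate 2 and 575 CPM in replicate 5. The search ran over 11932 candidates for Hk2 and Ldha and 11933 for Aldoc with only 6 libraries, and nothing is drawn from it about function or control.

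Fractional counts limit some of these levels. Counts of Aldoa, Pkm and Ldha were fractional in all 6 libraries, those of Hk1 in 4, Ldhb in 2 and Slc16a1 in 1, while Slc2a3, Hk2, Pfkp and Aldoc were whole. The pseudogene Ldhb-ps held 12.2% to 14.3% as many counts as Ldhb and Ldha-ps2 held 1.75% to 2.17% as many as Ldha, so reads of these genes may have been divided between copies. A split of reads by fixed shares would by itself keep such a percentage similar in all cultures. The part of divided reads in the level of Ldha was not tested.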

How the data were processed

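Poly-A RNA of 6 cultures in 1 group was sequenced with a stranded kit, per the labels' protocols. The authors deposited 1 table of estimated counts per gene, with no scaling; per the submitters' processing notes bcl2fastq 2.20.0.422, cutadapt 2.5, STAR 2.7.2b and featureCounts 1.6.4 were used with build GRCm38.p6. Their settings, including strand and the division of multi-matching reads, are not given in the sources used here. Between 13.4% and 14.7% of the values of a library were fractional, so reads were divided between genes or copies.

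CPM was computed from the deposited values and the library totals. For the test of variation, counts were rounded, genes were kept with filterByExpr (14998 genes, which asks for a minimum level in all 6 libraries) and libraries were scaled by TMM in edgeR 4.0.16 (R 4.3.3). An intercept-only fit with dispersion 0 gave a residual deviance per gene, set against a chi-square distribution; quasi-likelihood tests need a contrast, and there was none. The script was tested on simulated data. Precision is limited by 20070639 to 22968642 counts per library. Pairs of genes were compared with the pseudocount 0.1 on CPM per kb. Alternatives were DESeq2 1.42.0 size factors, filters, pseudocounts, gene lengths and left-out replicates; the GENCODE lengths and the choice of replicates 1 and 5 were added after seeing the data. Named were all 10 genes, the 3 highest of each pathway list per kb, genes of the same step, those with fold differences between replicates 1 and 5 stated in the text (chosen after their values were seen), and the 3 genes most like each of the 3 most variable. The genes and lists were chosen with earlier results of these data known.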

Additional observations from a re-analysis of the deposited data

Results flagged for a closer look

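In each of 72 measures (the 10 genes, the 8 pair differences and 54 pathway genes with a mean of at least 1 CPM), it was asked how far the most extreme culture stood from the next one, as a share of the whole range, by Dixon's criterion for 6 values. The criterion was met in 9, where chance would give 3.6 if genes were independent, which they are not, and in 8 of the 9 the extreme culture was replicate 5. None of the 10 genes or the 8 pairs was among them.

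Tpi1, triose phosphate isomerase, stood at 260 CPM in replicate 5 and 217 to 224 CPM elsewhere (gap over range 0.848). Egln3 reached 4.87 CPM against at most 1.63 CPM (0.746). Bnip3 reached 25.5 CPM against at most 18.4 CPM (0.718), and Pdk1 19.1 CPM against at most 8.08 CPM (0.714). Slc16a3, the MCT4 gene, reached 27.9 CPM against at most 9.32 CPM (0.706). Emb, the embigin gene, reached 122 CPM against at most 62.7 CPM (0.652), and Vegfa 99.4 CPM against at most 60.6 CPM (0.630). Ndrg1 was lowest in replicate 5, at 349 CPM against at least 490 CPM (0.633). Pdha1 was lowest in replicate 2, at 201 CPM against 209 to 212 CPM (0.674), and did not pass the test of variation (edgeR, adjusted p = 0.592). The summed fibroblast, mural, macrophage and endothelial markers were also highest in replicate 5, and their part in these values was not tested.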

How the results depend on the processing

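The number of the 10 genes varying beyond read sampling was 10 with DESeq2 size factors, without the filter on low counts and with Pearson's chi-square, and 9 to 10 with a replicate left out. It was 4 among genes with whole counts, because 6 of the 10 have fractional counts and were not tested. Without division by length the pair differences were 3.90 for Hk1 minus Hk2, 8.01 for Aldoa minus Aldoc, -0.23 for Slc2a3 minus Slc2a1, 1.66 for Pfkp minus Pfkl, 2.38 for Slc16a1 minus Slc16a3 and 1.57 for Slc16a1 minus Slc16a7 (exact permutation, adjusted p = 0.031 each), and they reversed to 1.58 for Ldha minus Ldhb and 1.52 for Pfkp minus Pfkm. With principal transcript lengths they were 4.35, 8.80, -0.51, 1.5, 2.26 and 2.77 in the same order, and reversed to 1.14 and 1.00. The lengths divided by were changed while the pseudocount stayed at 0.1, so its weight relative to each gene changed as well. Over the fits with a replicate left out, Pfkp minus Pfkl ran from -0.037 (without replicate 1, a reversal) to 0.26; with 5 libraries the smallest possible exact permutation p is 0.0625. A pseudocount of 1 and rounding down changed no direction or call of a pair, and the mean CPM of each gene moved by less than 1 SD in all 90 alternative values. For the values with a replicate left out this had to hold. Leaving out 1 of 6 values cannot move their mean by a whole SD of the same values. Libraries could not be paired between conditions because all belong to 1 group, and only genes were paired, within libraries. Depth limits Aldoc most, with 32 to 84 counts per library.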
